A study of Caenorhabditis elegans with 10 samples.

Results

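Messenger RNAs that the Caenorhabditis elegans germ line makes for the oocyte, its eggshell and the early embryo, with genes of the P granules, were followed in wdr-23 mutant animals. The set was a list of 36 gene symbols, and each gene was represented by the brightest probe set that the array annotation assigned to that symbol alone. Of the 36 genes, 35 had such a probe set, among 17118 genes named in this way on the array. The exception was puf-6, whose probe sets were shared with puf-7 or with puf-7 and puf-10. All 35 passed the filter on dim probe sets, with mean signals over the 10 arrays between 846 and 10522.

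RNA came from whole animals, 200 to 500 pooled per sample, grown from synchronised L1 larvae until most were L4 larvae. The 3 groups were wdr-23 mutants on skn-1 RNAi (n = 3 arrays), wdr-23 mutants on control RNAi (n = 4) and the wild-type strain N2 on control RNAi (n = 3), each array from a biological replicate. RNAi was given by feeding HT115 bacteria, on plates that held carbenicillin at 50 ug/ml and lactose at 0.2%. The sample labels give the mutant allele as wdr-23(tm1718), whereas the design text gives wdr-23(tm1817). N2 animals on skn-1 RNAi are not analysed here. WDR-23 keeps the stress-response transcription factor SKN-1 low, and SKN-1 also has a maternal role in the early embryo.

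An oocyte is loaded with RNA and protein that the embryo uses before its own genome becomes active. Some eggshell proteins are stored in the oocyte and secreted at fertilisation. RNA-binding proteins hold maternal messages silent until they are needed, and P granules are RNA and protein condensates at germ cell nuclei. In hermaphrodites the germ line makes sperm during L4 and then turns to oocytes.

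Each array had been scaled by the authors to the same trimmed mean, and array medians were 113 to 139.9. The brightest of 3 skn-1 probe sets had signals of 237 to 289 in the wdr-23 skn-1 RNAi arrays, against 381 to 547 in the wdr-23 control RNAi arrays (limma log2 change -0.83, adjusted p = 0.000708). The wdr-23 transcript, whose probe position relative to the deleted part is not given, had signals of 2784 to 3858 in wdr-23 control RNAi arrays and 725 to 1026 in N2. In wdr-23 skn-1 RNAi arrays its signals were 882 to 919, which differed from N2 by a log2 change of 0.072 (adjusted p = 0.858) and from wdr-23 control RNAi by -1.82 (adjusted p = 2.9e-08), so this probe set does not check the genotype. In pooled whole animals, fewer germ cells and less RNA per germ cell cannot be told apart. Most animals were L4 larvae, and whether the groups differed in stage was not tested.

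Many of these transcripts were lower in wdr-23 mutants than in N2, and many were higher in wdr-23 mutants on skn-1 RNAi than in those on control RNAi. Between wdr-23 mutants and N2 on control RNAi, 19 of the 35 genes fell and 0 rose (limma, adjusted p under 0.05 over all 15783 tested probe sets), with a median log2 change of -0.32. Over all tested probe sets 10.1% were called lower and 17.4% higher, and of the 4334 probe sets at least as bright as the dimmest of the 35, 16.9% were called lower. With skn-1 RNAi, 17 of the 35 rose and 0 fell (median log2 change 0.36), where 9.99% of all tested probe sets were called higher and 12.6% lower, and 16.2% of the equally bright ones higher. At an unadjusted p under 0.05, 23 were lower and 0 higher in the mutant, where 16.7% of all tested and 28.1% of equally bright probe sets were lower. With skn-1 RNAi 27 were higher and 0 lower at that level, where 17% of all tested and 26.6% of equally bright ones were higher. The median change of all tested probe sets was 0.014 for mutant over N2 and -0.0095 for skn-1 RNAi over control RNAi, and that of the equally bright ones was -0.13 and 0.11. The comparisons share the 4 wdr-23 control RNAi arrays, so opposite signs in them are not independent. The 12 genes called in both were cbd-1, chs-1, mex-1, mex-5, pos-1, puf-3, puf-5, puf-7, puf-11, spn-4, cgh-1 and deps-1.

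Changes were modest in size, from -0.82 (deps-1) to 0.082 (glh-1) for mutant over N2 and from -0.17 (perm-4) to 0.88 (deps-1) for skn-1 RNAi over control RNAi. In 32 of the 35 genes the mean of the wdr-23 control RNAi arrays was the lowest of the 3 group means. Every wdr-23 control RNAi array lay under every N2 array for 18 genes, against 13.6% of all tested and 23.1% of equally bright probe sets. Every skn-1 RNAi array lay above every mutant control RNAi array for 18 genes, against 14.9% and 23.6%. Fewer genes passed when some arrays were left out. Mutant over N2 had 10 falls without N2 replicate 1 and 8 without N2 replicate 2, and 13 to 20 without any other array. The rises with skn-1 RNAi were 9 without wdr-23 skn-1 RNAi replicate 1 and 11 without any one of its replicates 2 and 3 and wdr-23 control RNAi replicates 2 and 4. Centring the arrays on their medians moved the changes of all probe sets by a median of -0.20 and 0.15 and gave 31 falls and 31 rises among the 35. The split over all tested probe sets then turned to 1671 higher and 4613 lower for mutant over N2, where the deposited scaling gave 2754 and 1590, and to 3463 higher and 1308 lower for skn-1 RNAi, where it gave 1577 and 1981. With quantile normalization 16 fell, and with skn-1 RNAi 17 rose and 1 (perm-4) fell.

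**Figure D1:**
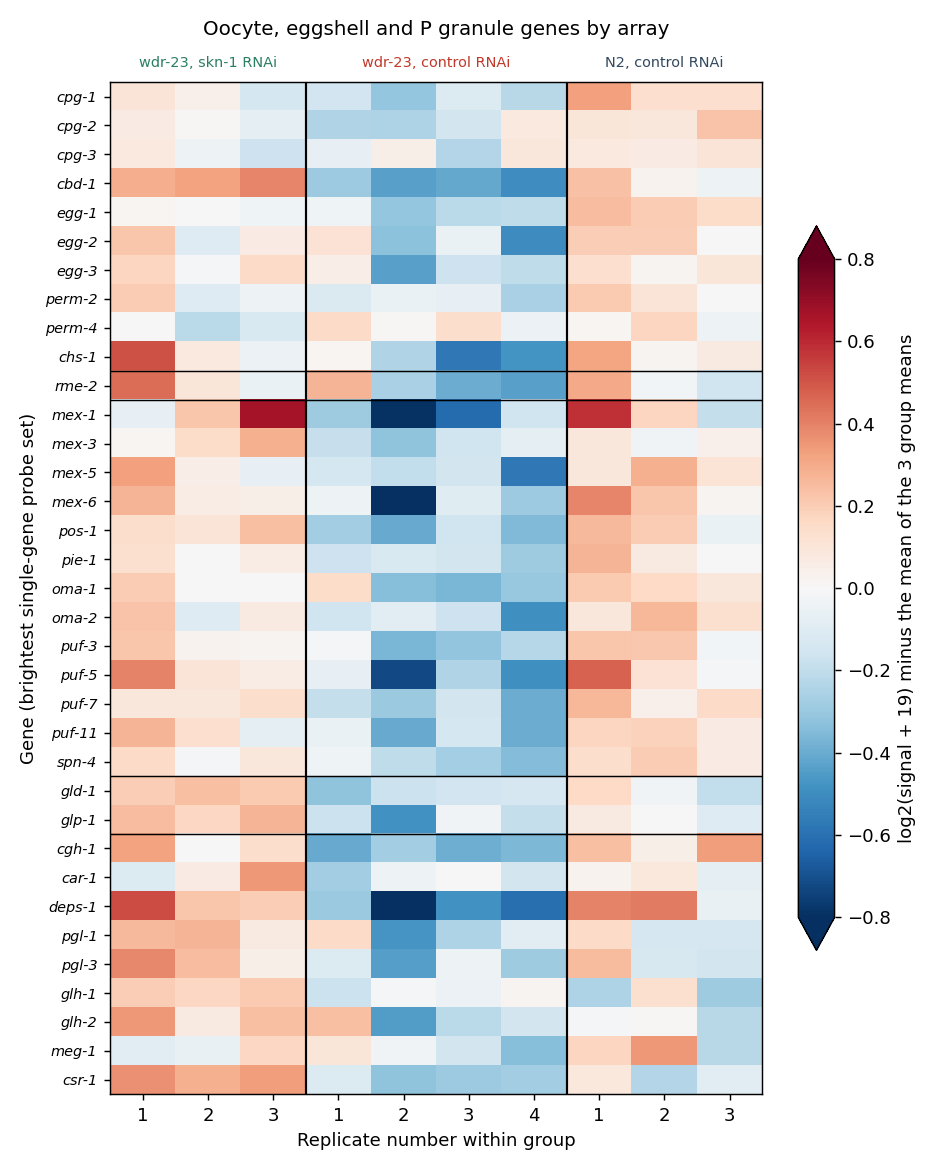
Heat map of the 35 genes (rows, grouped by role) on the 10 arrays (columns, by group and replicate), coloured by log2(signal + 19) minus the mean of the 3 group means, in log2 units. Most genes are blue, meaning lower, in the 4 wdr-23 control RNAi arrays, and the median gene sat at -0.31 to -0.11 there, against 0.066 to 0.20 in the wdr-23 skn-1 RNAi arrays and -0.0018 to 0.19 in N2.

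**Figure D2:**
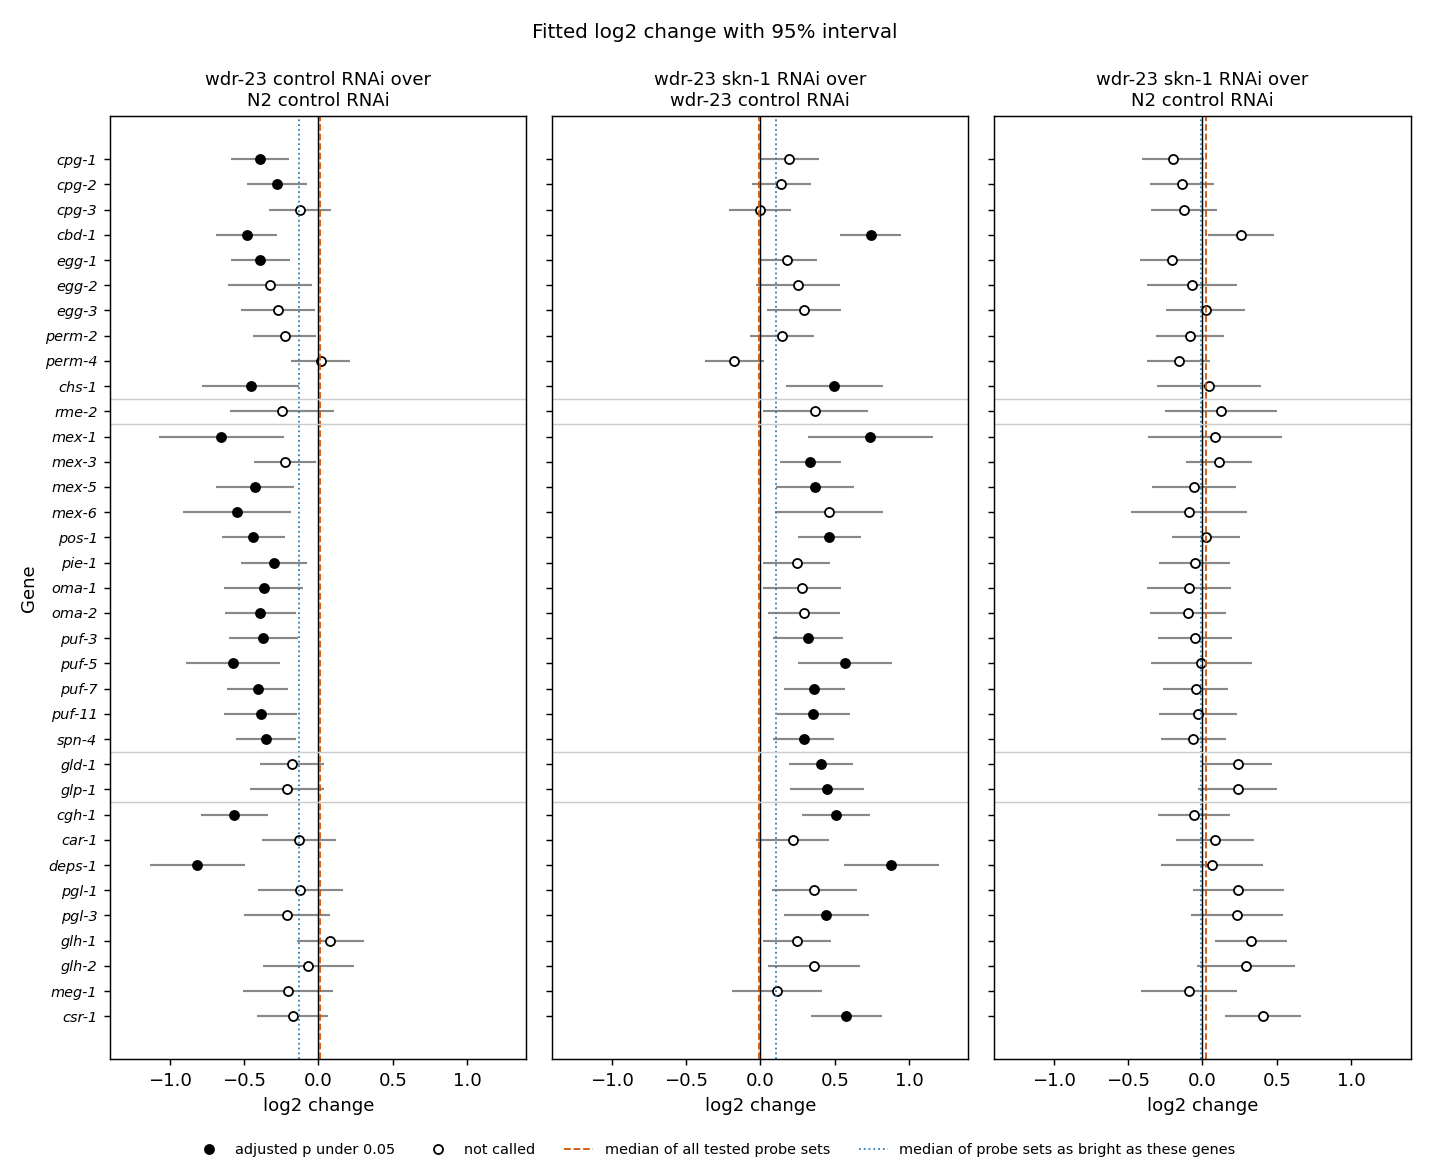
Fitted log2 change (horizontal axis) of each gene in the 3 comparisons, with 95% intervals as lines and filled points where the adjusted p was under 0.05. The left panel holds 19 filled points, all below 0, the middle panel 17, all above 0, and the right panel 0.

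Eggshell genes formed the first role group, and 5 of 10 fell in the mutant while 2 rose with skn-1 RNAi. Of equally bright probe sets 16.9% were called lower and 16.2% higher, so the 2 rises are near that share for so few genes. The gene cbd-1, which encodes a chitin-binding protein of the outer eggshell layer, had signals of 5322, 5426 and 5694 in the wdr-23 skn-1 RNAi arrays, 3539, 3207, 3257 and 3073 in the wdr-23 control RNAi arrays and 5112, 4428 and 4216 in the N2 arrays. The groups did not overlap, with the wdr-23 control RNAi arrays lowest and the skn-1 RNAi arrays highest. Its signal was 1.4-fold lower in the mutant than in N2 (log2 change -0.48, SE 0.097, adjusted p = 0.00166) and 1.67-fold higher with skn-1 RNAi (log2 change 0.74, SE 0.097, adjusted p = 3.9e-05). The chitin synthase gene chs-1, whose product makes the chitin of the shell, had signals of 2449.6, 1809 and 1658 in the wdr-23 skn-1 RNAi arrays, 1729, 1450.0, 1148 and 1227 in the wdr-23 control RNAi arrays and 2133, 1740.5 and 1804 in the N2 arrays. All 4 control RNAi arrays of the mutant lay under N2, but replicate 1 of them was above skn-1 RNAi replicate 3. For chs-1 the mutant was lower than N2 (log2 change -0.45, SE 0.15, adjusted p = 0.0379) and skn-1 RNAi higher than control RNAi (log2 change 0.50, SE 0.15, adjusted p = 0.0291).

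The chondroitin proteoglycan genes differed among themselves. For cpg-1 the signals were 11339.9, 10874 and 9577 in the wdr-23 skn-1 RNAi arrays, 9513, 8547, 9810.4 and 9078 in the wdr-23 control RNAi arrays and 13255, 11608 and 11612 in the N2 arrays. The mutant control arrays all lay below the N2 arrays (log2 change -0.39, SE 0.092, adjusted p = 0.00486). Its paralog cpg-2 fell less (log2 change -0.28, SE 0.095, adjusted p = 0.0379), and cpg-3 did not pass the test, with means of 7361 ± 731 in the mutant and 7979 ± 114 in N2 (SD, n = 4 and 3, adjusted p = 0.372). Under skn-1 RNAi the 3 genes changed by 0.20, 0.14 and -0.0021 on the log2 scale in the same order (adjusted p = 0.139, 0.3 and 0.991). None of these passed.

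The oocyte surface gene egg-1, needed for sperm entry, had signals of 3687, 3045, 3246 and 3276 in the mutant, against 4474, 4358 and 4181 in N2 (log2 change -0.39, SE 0.094, adjusted p = 0.00603). All mutant arrays were below N2. Its paralog egg-2 (-0.32, adjusted p = 0.0819) and egg-3, a pseudophosphatase of egg activation (-0.27, adjusted p = 0.0969), did not pass, nor did any of the 3 with skn-1 RNAi (0.18, 0.25 and 0.29). The vitelline layer genes perm-2 and perm-4 are neighbours in the RefSeq gene table. The mean of perm-4 was 8637 ± 661 with skn-1 RNAi and 9747 ± 669 with control RNAi in the mutant, and 9645 ± 750.1 in N2, the only one of the 35 genes with its highest mean in the wdr-23 control RNAi group. Neither perm-4 (0.015 and -0.17) nor perm-2 (-0.23 and 0.14) was called in mutant over N2 or skn-1 RNAi over control RNAi. Single arrays decided some eggshell calls, which are given with the arrays (by group and replicate) whose omission ended them and, in brackets, the range of log2 changes over all 10 omissions. The fall of cpg-2 was lost without any one of N2 arrays 1, 2 and 3, mutant skn-1 RNAi array 2 and mutant control arrays 1, 2 and 3 (-0.35 to -0.23), and that of chs-1 without any one of N2 arrays 1, 2 and 3 and mutant control arrays 3 and 4 (-0.56 to -0.37). The rise of chs-1 was lost without any one of mutant skn-1 RNAi array 1 and mutant control arrays 3 and 4 (0.33 to 0.61).

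The yolk receptor gene rme-2, which takes up vitellogenin into the oocyte, had signals of 5206, 4075 and 3672 in the wdr-23 skn-1 RNAi arrays, 4601, 3179, 2880.3 and 2812 in the wdr-23 control RNAi arrays and 4702, 3747 and 3399.7 in the N2 arrays. In each group replicate 1 was the highest, and the groups overlapped. Neither the change of -0.24 in the mutant (adjusted p = 0.285, 95% interval -0.60 to 0.11) nor that of 0.37 with skn-1 RNAi (adjusted p = 0.119, interval 0.02 to 0.72) passed. The yolk protein genes it serves, made in the intestine, were lower in the mutant in 4 of 5 cases and higher with skn-1 RNAi in 4 of 5. Over all tested probe sets 10.1% were called lower and 9.99% higher. With quantile normalization 3 of the 5 yolk protein genes were lower in the mutant.

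**Figure D3:**
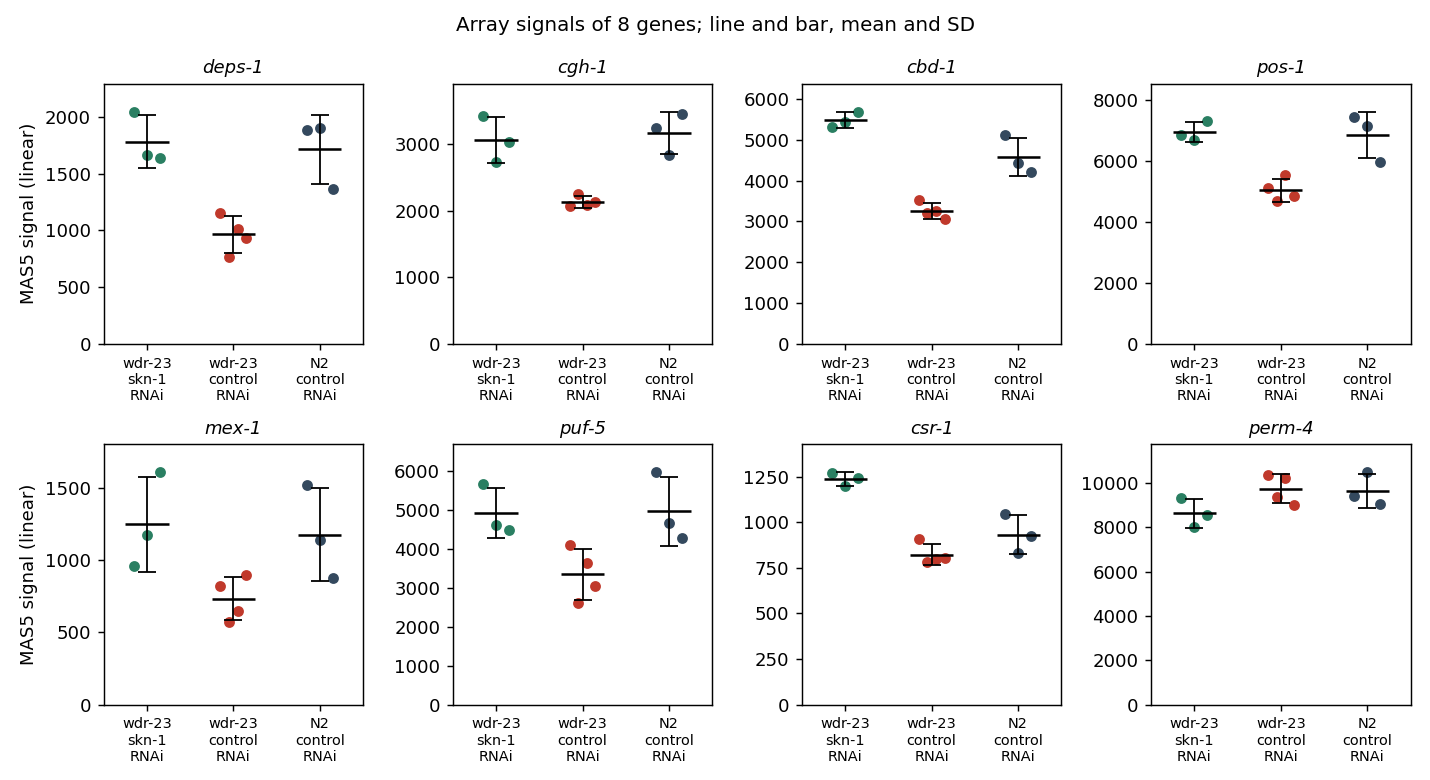
Linear MAS5 signals of 8 genes (one panel each, vertical axis from 0) in wdr-23 skn-1 RNAi, wdr-23 control RNAi and N2 control RNAi, with a point per array, a line at the mean and a bar of 1 SD. The wdr-23 control RNAi arrays of deps-1, cgh-1, cbd-1, pos-1 and puf-5 lie below both other groups, csr-1 is highest with skn-1 RNAi, and perm-4 overlaps in all 3 groups.

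RNA-binding proteins of the oocyte and early embryo had 12 of 13 called lower in the mutant, the highest share of falls of the role groups, and 9 of 13 called higher with skn-1 RNAi. Medians were -0.39 and 0.36. Of equally bright probe sets 16.9% were called lower in the mutant and 16.2% higher with skn-1 RNAi. The CCCH zinc finger gene pos-1, which acts in the posterior blastomeres, had signals of 6849, 6676 and 7318 in the wdr-23 skn-1 RNAi arrays, 5102, 4679, 5549 and 4840.5 in the wdr-23 control RNAi arrays and 7437, 7148 and 5984 in the N2 arrays. The mutant control RNAi arrays lay below all 6 others. Its log2 change was -0.44 over N2 (SE 0.10, adjusted p = 0.00411) and 0.46 with skn-1 RNAi (SE 0.10, adjusted p = 0.00367).

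The widest change of the group was in mex-1, a CCCH zinc finger gene of germ line determination, with signals of 959, 1173 and 1607 in the wdr-23 skn-1 RNAi arrays, 819.6, 572, 648 and 898 in the wdr-23 control RNAi arrays and 1518, 1136 and 876 in the N2 arrays. Both the skn-1 RNAi and N2 groups were widely spread, and mutant replicate 4 overlapped with N2 replicate 3. The fits gave 1.57-fold lower in the mutant (log2 change -0.65, SE 0.20, adjusted p = 0.0224) and 1.67-fold higher with skn-1 RNAi (log2 change 0.74, SE 0.20, adjusted p = 0.0143). The related polarity genes also fell, mex-5 at -0.42 (adjusted p = 0.0183) and mex-6 at -0.55 (adjusted p = 0.0259). With skn-1 RNAi mex-5 rose (0.37, adjusted p = 0.043), while mex-6 did not pass (0.46, adjusted p = 0.064) although its 3 skn-1 RNAi arrays, at 2349, 2024 and 2008, lay above the 4 control RNAi arrays, at 1890.2, 1016, 1820.3 and 1588. On the second probe sets of these genes it was the reverse, with mex-6 called higher (0.38, adjusted p = 0.0302) and mex-5 not called (0.49, adjusted p = 0.0786). The KH-domain gene mex-3 was the exception to the falls, at -0.22 (adjusted p = 0.102), and rose with skn-1 RNAi (log2 change 0.34, SE 0.098, adjusted p = 0.0219).

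The oocyte maturation genes oma-1 and oma-2, CCCH zinc finger paralogs, fell by nearly the same amount on their brightest probe sets (-0.37 and -0.39, adjusted p = 0.0383 and 0.0176). A second oma-2 probe set was at -0.37 and was not called (adjusted p = 0.282). Signals of oma-1 were 2608, 1852, 1821 and 1907 in the mutant, against 2719, 2633 and 2504 in N2. Mutant replicate 1 overlapped with N2, and the other 3 mutant arrays lay well below. With skn-1 RNAi neither passed (0.28 and 0.29, adjusted p = 0.118 and 0.0728). The germ lineage repressor gene pie-1 fell (-0.30, adjusted p = 0.0465), with 1431, 1475, 1449.7 and 1317 in the mutant and 1948, 1693 and 1605 in N2. Its change with skn-1 RNAi was 0.24 (adjusted p = 0.107).

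All 4 Pumilio-family genes of the set with a probe set of their own, which encode translational repressors of oocyte messages, fell in the mutant and rose with skn-1 RNAi. For puf-5 the signals were 5664, 4628 and 4491 in the wdr-23 skn-1 RNAi arrays, 4101, 2601, 3631 and 3056 in the wdr-23 control RNAi arrays and 5974, 4661 and 4282 in the N2 arrays. Mutant control RNAi arrays lay below the 6 others, and replicate 1 was the highest of each group. The mutant differed from N2 by -0.57 (SE 0.15, adjusted p = 0.00966), and skn-1 RNAi from control RNAi by 0.57 (SE 0.15, adjusted p = 0.013). The close relatives puf-3 and puf-11 changed by -0.37 and -0.39 in the mutant and by 0.32 and 0.36 with skn-1 RNAi. On its own probe set puf-7 fell in the mutant (log2 change -0.41, SE 0.098, adjusted p = 0.0056) and rose with skn-1 RNAi (log2 change 0.36, SE 0.098, adjusted p = 0.0144). The probe set shared by puf-6 and puf-7 was at -0.30 (adjusted p = 0.353) and 0.54 (adjusted p = 0.101), and the one shared by puf-6, puf-7 and puf-10 at -0.52 (adjusted p = 0.0157) and 0.37 (adjusted p = 0.0807). The embryonic RNA-binding gene spn-4 had signals of 6548, 5833 and 6267 in the wdr-23 skn-1 RNAi arrays, 5737, 5121, 4862 and 4626 in the wdr-23 control RNAi arrays and 6503, 6786 and 6159.8 in the N2 arrays. Its mutant control RNAi arrays lay below the other 6, with changes of -0.35 (adjusted p = 0.0127) and 0.29 (adjusted p = 0.0394). A second spn-4 probe set (mean signal 3324) was called in neither comparison, at -0.18 (adjusted p = 0.332) and 0.24 (adjusted p = 0.191).

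Of the 12 falls in this group, those of pos-1 and puf-7 were called whichever array was left out. The fall of mex-1 was lost without any one of N2 arrays 1 and 2 and mutant control arrays 2 and 3 (-0.84 to -0.45), of mex-5 without any one of N2 array 2 and mutant control array 4 (-0.47 to -0.32), and of mex-6 without any one of N2 arrays 1 and 2 (-0.65 to -0.35). That of pie-1 was lost without any one of N2 arrays 1 and 2, mutant skn-1 RNAi arrays 1, 2 and 3 and mutant control arrays 1, 3 and 4 (-0.35 to -0.22), and that of oma-1 without any one of N2 arrays 1, 2 and 3 and mutant control arrays 2, 3 and 4 (-0.49 to -0.32). The oma-2 fall was lost without any one of N2 array 2 and mutant control array 4 (-0.43 to -0.30), the puf-3 fall without any one of N2 arrays 1 and 2 and mutant control arrays 2 and 3 (-0.45 to -0.32), and the puf-11 fall without any one of N2 arrays 1 and 2 and mutant control arrays 2 and 4 (-0.45 to -0.34). Those of puf-5 and spn-4 were lost without N2 array 1 (-0.68 to -0.44) and without N2 array 2 (-0.41 to -0.31). Among the rises, pos-1 was called in every omission, mex-1 was lost without mutant skn-1 RNAi array 3 (0.54 to 0.91), mex-3 without any one of mutant skn-1 RNAi arrays 2 and 3 and mutant control array 2 (0.27 to 0.40) and mex-5 without any one of N2 array 1, mutant skn-1 RNAi arrays 1 and 2 and mutant control arrays 2 and 4 (0.26 to 0.45). The rises of puf-5 and puf-7 were lost without mutant skn-1 RNAi array 1 (0.46 to 0.67) and without mutant skn-1 RNAi array 3 (0.32 to 0.40). The puf-3 rise was lost without any one of N2 arrays 1 and 2, mutant skn-1 RNAi arrays 1, 2 and 3 and mutant control arrays 2, 3 and 4 (0.25 to 0.39), the puf-11 rise without any one of mutant skn-1 RNAi arrays 1 and 2 and mutant control arrays 2 and 4 (0.27 to 0.45), and the spn-4 rise without any one of mutant skn-1 RNAi arrays 1, 2 and 3 and mutant control arrays 2, 3 and 4 (0.25 to 0.35).

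The regulators of germ cell proliferation and meiotic entry, gld-1 and glp-1, rose with skn-1 RNAi without a called fall in the mutant. Signals of gld-1, which encodes a KH-domain repressor of oocyte messages, were 4204, 4330.2 and 4241 in the wdr-23 skn-1 RNAi arrays, 2929.7, 3247, 3296 and 3337 in the wdr-23 control RNAi arrays and 4098, 3598 and 3196 in the N2 arrays. The skn-1 RNAi arrays lay above all others, and the mutant control RNAi arrays overlapped with N2. Its change was 0.41 with skn-1 RNAi (SE 0.10, adjusted p = 0.00899) and -0.17 in the mutant over N2 (adjusted p = 0.213). A second, dim gld-1 probe set (mean signal 103) was at -0.0071 with skn-1 RNAi (adjusted p = 0.982). The Notch receptor gene glp-1, which keeps germ cells dividing, had signals of 1501, 1414 and 1523 in the wdr-23 skn-1 RNAi arrays, 1117, 896, 1233 and 1102 in the wdr-23 control RNAi arrays and 1323, 1264 and 1169.8 in the N2 arrays. Again the skn-1 RNAi arrays were above the 7 others (log2 change 0.45, SE 0.12, adjusted p = 0.0129), and mutant over N2 was at -0.21 (adjusted p = 0.199). The rise of glp-1 was lost without any one of mutant skn-1 RNAi arrays 1 and 3 (0.36 to 0.51).

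Genes of P granules and of the wider RNA and protein granules of the germ line formed the last role group. Of these 9, 2 were called lower in the mutant and 4 higher with skn-1 RNAi. Of equally bright probe sets 16.9% were called lower and 16.2% higher, so the 2 falls are near that share for so few genes. The P granule assembly gene deps-1 had the largest change of the 35 in both comparisons, with signals of 2046, 1664 and 1633 in the wdr-23 skn-1 RNAi arrays, 1153, 765, 1012 and 928 in the wdr-23 control RNAi arrays and 1879.7, 1900.2 and 1361 in the N2 arrays. The mutant control RNAi arrays lay below the other 6. The fits gave 1.76-fold lower in the mutant than in N2 (log2 change -0.82, SE 0.15, adjusted p = 0.000843) and 1.84-fold higher with skn-1 RNAi (log2 change 0.88, SE 0.15, adjusted p = 0.000622). The DEAD-box helicase gene cgh-1, whose product protects maternal messages, had signals of 3421, 2727 and 3027 in the wdr-23 skn-1 RNAi arrays, 2066, 2256, 2081 and 2128 in the wdr-23 control RNAi arrays and 3240.4, 2829 and 3451 in the N2 arrays. Its mutant control RNAi arrays, the tightest of the 35 genes in that group, lay below the 6 others (log2 change -0.57, SE 0.11, adjusted p = 0.00104 over N2, and log2 change 0.51, SE 0.11, adjusted p = 0.00302 with skn-1 RNAi). Both genes were called in both comparisons whichever array was left out.

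The Argonaute gene csr-1 had signals of 1271, 1197 and 1241 in the wdr-23 skn-1 RNAi arrays, 908, 779, 797 and 806 in the wdr-23 control RNAi arrays and 1042, 831 and 923 in the N2 arrays. The skn-1 RNAi arrays stood above the 7 others, and the mutant control RNAi arrays overlapped with N2. It rose with skn-1 RNAi (log2 change 0.58, SE 0.11, adjusted p = 0.00168) and was at -0.17 in the mutant over N2 (adjusted p = 0.265). The scaffold gene pgl-3 rose with skn-1 RNAi (log2 change 0.44, SE 0.14, adjusted p = 0.0278), while its paralog pgl-1 was at 0.36 (adjusted p = 0.0647), and neither was called in the mutant (-0.21 and -0.12). The rise of pgl-3 was lost without any one of mutant skn-1 RNAi arrays 1 and 2 and mutant control arrays 2 and 4 (0.37 to 0.53). The Vasa-type helicase genes glh-1 and glh-2 changed by 0.082 and -0.067 in the mutant and 0.25 and 0.36 with skn-1 RNAi (adjusted p = 0.111 and 0.086). The LSM14-family gene car-1 (-0.13 and 0.22) and the P granule gene meg-1 (-0.20 and 0.11) did not pass on their brightest probe sets.

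Between wdr-23 mutants on skn-1 RNAi and N2 on control RNAi, 0 of the 35 genes were called by limma, where 6.34% of all tested probe sets were. At an unadjusted p under 0.05 there were 4 genes, all higher in the mutant on skn-1 RNAi, csr-1, glh-1, cbd-1 and gld-1, a share near the 11.5% of all tested and 8.19% of equally bright probe sets that were higher at that level. The largest, csr-1, was at 0.41 (SE 0.12, adjusted p = 0.0563), followed by glh-1 at 0.33 (adjusted p = 0.109), cbd-1 at 0.26 (adjusted p = 0.168) and gld-1 at 0.24 (adjusted p = 0.246). Without N2 replicate 2, glh-1 was called (0.46, adjusted p = 0.0284). For deps-1 the change was 0.064 with a 95% interval of -0.28 to 0.41, for cgh-1 -0.054 (-0.30 to 0.19) and for pos-1 0.024 (-0.20 to 0.25). The 95% intervals included 0 for 31 of the 35, and their median half-width was 0.26. Medians by role were -0.10 for eggshell genes, -0.049 for the RNA-binding proteins, 0.24 for gld-1 and glp-1 and 0.23 for the granule genes. In 18 of the 35 genes the N2 mean was the highest of the 3 groups, and in 16 the mean of wdr-23 on skn-1 RNAi. The effect of skn-1 RNAi in N2 was not tested.

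Several of these genes have close relatives, so a probe set may collect signal from more than its own gene. Of the 35 brightest probe sets, 16 had no suffix, 16 had the suffix _s_at and 3 had _x_at, which the manufacturer gives to sets whose probes can match more than 1 transcript. The puf-3, puf-5, oma-1 and oma-2 sets were of the _s_at type and those of puf-7, mex-5 and perm-4 of the _x_at type, so signal from related transcripts cannot be told apart on them. With sets lacking a suffix wherever a gene had one, 19 of 34 tested genes fell and 17 rose, as many as on the brightest sets. The genes were not all the same. The oma-2 fall was lost (-0.37, adjusted p = 0.282) and a meg-1 fall gained. The mex-5 rise was lost (0.49, adjusted p = 0.0786) and a glh-1 rise gained. Genes with suffixed sets only, among them puf-3, puf-5, puf-7 and oma-1, kept those sets, so the equal totals do not check them.

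A further 20 probe sets named 16 of the 35 genes alone, and 19 were bright enough to test. Of these, 11 were called lower in the mutant and 0 higher, and with skn-1 RNAi 6 were called higher and 1 lower. Over all tested probe sets, 10.1% were lower and 17.4% higher in the mutant, and 9.99% higher and 12.6% lower with skn-1 RNAi. Signs were the same as on the gene's brightest set for 17 and 18 of the 19, on the same arrays. Between mutants on skn-1 RNAi and N2, 2 of the 19 were called lower, of car-1 and perm-4, and 0 higher, beside 2.46% and 3.88% of all tested probe sets. In that comparison 11 of 19 had the sign of the brightest set. Both other meg-1 sets were lower in the mutant (-0.54 and -0.72, adjusted p = 0.0239 and 0.00653), and the dimmer of them was higher with skn-1 RNAi (0.69, adjusted p = 0.0102). For car-1, 1 dim set was lower in the mutant (-0.72, adjusted p = 0.0105) and at 0.0076 with skn-1 RNAi, unlike its brightest set. This car-1 set was also called lower in mutants on skn-1 RNAi than in N2 (-0.72, adjusted p = 0.0475). The second glh-1 set rose with skn-1 RNAi (0.32, adjusted p = 0.0496), and a second mex-3 set fell in the mutant (-0.28, adjusted p = 0.032). For perm-4, 1 other set fell with skn-1 RNAi (-0.35, adjusted p = 0.0289) and was lower than N2 with it (-0.42, adjusted p = 0.0367), and the second cbd-1 set changed by -0.87 in the mutant and 0.64 with skn-1 RNAi.

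**Figure D4:**
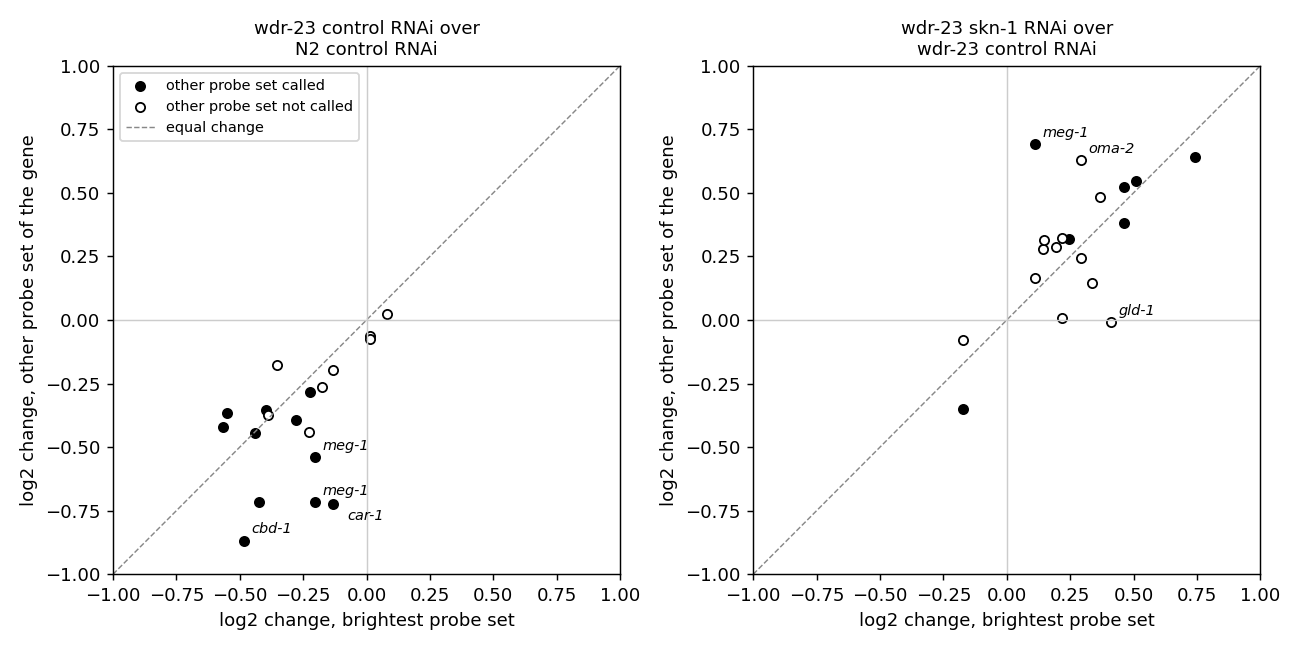
Log2 change of each additional single-gene probe set (vertical axis) against that of the same gene's brightest probe set (horizontal axis), for mutant over N2 (left) and skn-1 RNAi over control RNAi (right), with filled points where the additional set was called. Gene names mark the sets farthest from the line of equal change, meg-1, car-1 and cbd-1 on the left and meg-1, oma-2 and gld-1 on the right.

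Single arrays were often high or low for many of the 35 genes at once. Wdr-23 skn-1 RNAi replicate 1 had the highest value of its group in 24 of the 35 genes, wdr-23 control RNAi replicate 1 in 19 of 35 and N2 replicate 1 in 22 of 35. N2 replicate 3 was the lowest of its group in 23 genes and wdr-23 control RNAi replicate 2 in 17. The median SD of log2 values between replicates was 0.13 with skn-1 RNAi, 0.16 in the mutant control RNAi group and 0.13 in N2. It was widest for mex-1 with skn-1 RNAi and in N2 (0.37 and 0.39) and for mex-6 in the mutant on control RNAi (0.41).

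Further genes of the same processes were examined by counts, beside the 10.1% of all tested and 16.9% of equally bright probe sets called lower in the mutant and the 9.99% and 16.2% called higher with skn-1 RNAi. Of 14 other eggshell and chondroitin synthesis genes, 6 were lower and 0 higher in the mutant, and 4 were higher and 0 lower with skn-1 RNAi, with egg-6 at -0.52 and 0.49 and perm-1 at -0.52 and 0.41. Of 22 other germ line RNA regulators, 2 were lower, a share no higher than that of all probe sets: ifet-1 (-0.67), whose product binds the cap-binding protein eIF4E, and the Y-box gene cey-2 (-0.29), and 3 were higher with skn-1 RNAi, fbf-1 (0.50), puf-8 (0.48) and fbf-2 (0.42). Of 26 other germ granule and small RNA genes, 5 were lower in the mutant and 10 higher with skn-1 RNAi, none the other way. Among them simr-1 changed by -0.66 and 0.71, edg-1 by -0.52 and 0.65, and patr-1, a partner of cgh-1 in message storage and decay, by -0.61 and 0.50. Meiotic chromosome genes were lower in 2 of 25 cases (zim-1 and syp-3), again no higher a share than over all probe sets, and higher with skn-1 RNAi in 9 of 25. After median centring, which also moved the calls of all probe sets, the falls and rises were 11 and 8 for other eggshell genes, 12 and 13 for RNA regulators, 14 and 19 for granule genes and 17 and 18 for meiotic genes. Between wdr-23 on skn-1 RNAi and N2, 1 gene of these 4 lists was called, mut-16 (0.65, adjusted p = 0.0108). Median changes for mutant over N2 were -0.24, -0.16, -0.18 and -0.24 in this order of lists, beside 0.014 for all tested probe sets and -0.13 for those as bright as the 35 genes.

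**Figure D5:**
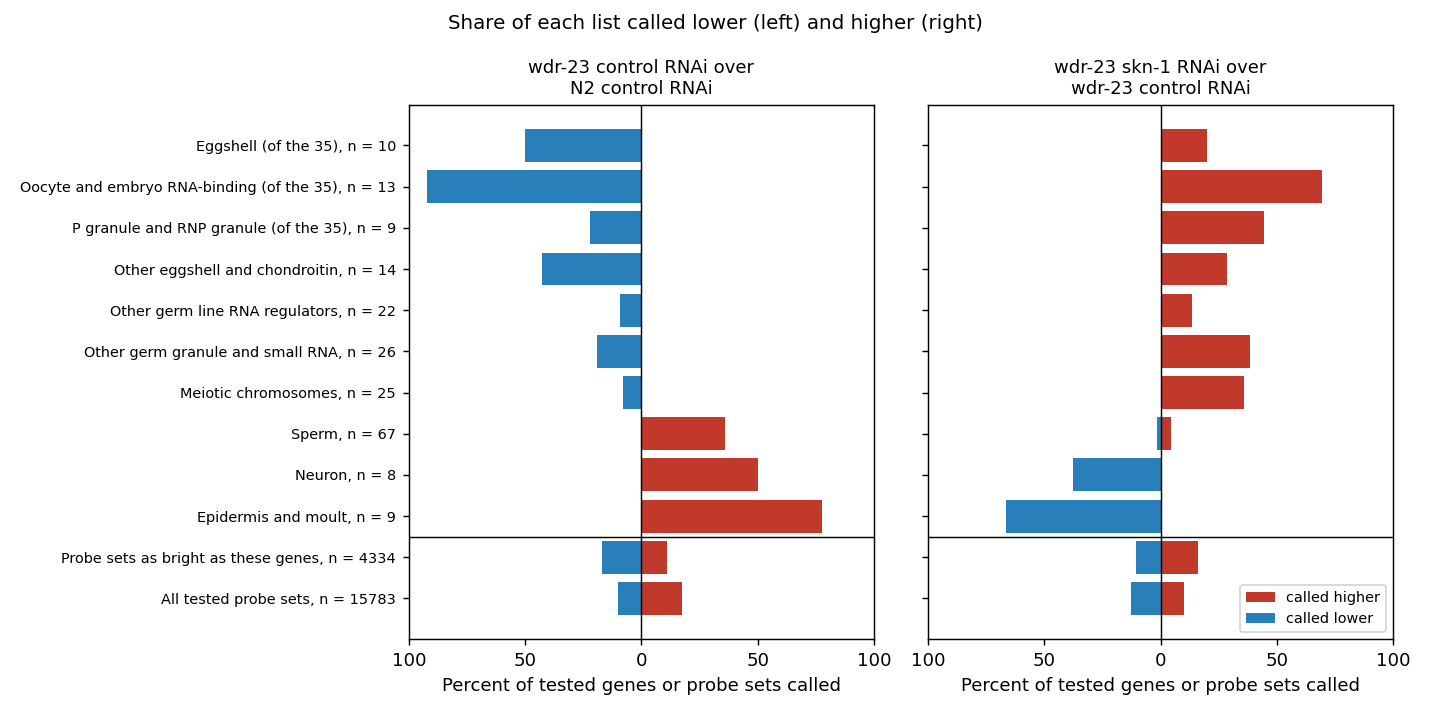
Percent of the tested genes of each list called lower (bars to the left) and higher (bars to the right) for wdr-23 over N2 on control RNAi (left panel) and skn-1 RNAi over control RNAi in wdr-23 (right panel), with the shares over probe sets as bright as the 35 genes and over all tested probe sets in the bottom rows. RNA-binding proteins of oocyte and embryo have 12 of 13 called lower on the left and 9 of 13 higher on the right, against 16.9% and 16.2% of equally bright probe sets.

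Markers of other tissues moved in the same comparisons, and their part in the oocyte results was not tested. Of all tested probe sets, 17.4% were called higher and 10.1% lower in the mutant, and 9.99% higher and 12.6% lower with skn-1 RNAi. In mutants on skn-1 RNAi over N2, 3.88% were called higher and 2.46% lower. Of 67 sperm genes tested, many of them near-identical copies, 24 were higher in the mutant than in N2 and 0 lower. The 70 sperm genes on the array, tested or not, had summed signals of 353515 to 415701 with skn-1 RNAi, 328011 to 377154 in mutant controls and 306897 to 365337 in N2. With skn-1 RNAi 3 sperm genes rose and 1 fell, and in mutants on skn-1 RNAi 19 of the 67 were higher than in N2 and 0 lower. After median centring 14 sperm genes were higher and 4 lower in the mutant, 14 were higher and 1 lower with skn-1 RNAi, and 13 were higher and 0 lower in mutants on skn-1 RNAi than in N2. Among 9 epidermal, moulting and cuticle genes, 7 were higher in the mutant and 6 of them lower with skn-1 RNAi, and their summed signal was 12313 to 12746 with skn-1 RNAi, 15645 to 17718 in the mutant control RNAi group and 11396 to 13148 in N2. Of 8 neuron markers, 4 were higher in the mutant and 3 lower with skn-1 RNAi, with sums of 5793 to 6152 with skn-1 RNAi, 7027 to 7984 in mutant controls and 5626 to 6195 in N2. After median centring, 2 neuron markers were higher in the mutant. Gonadal sheath and spermatheca genes, which belong to the somatic gonad, were higher in the mutant in 3 of 7 cases (1 of 7 after median centring or quantile normalization), with sums of 5546 to 6456 with skn-1 RNAi, 5695 to 6346 in mutant controls and 5475 to 6123 in N2.

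Intestine markers split, with 2 of 7 higher and 1 lower in the mutant, near the shares of all tested probe sets for so few genes, and 1 higher and 3 lower with skn-1 RNAi. Their sums were 24637 to 28428 with skn-1 RNAi, 28360 to 33912 in mutant controls and 26876 to 32240 in N2. Body-wall muscle markers were higher in the mutant in 2 of 7 cases and lower with skn-1 RNAi in 1, also near the shares of all tested probe sets. Their sums were 25609 to 27479 with skn-1 RNAi, 28732 to 30643 in mutant controls and 29054 to 31082 in N2. The vitellogenin genes summed to 50522 to 64101 with skn-1 RNAi, 40132 to 41511 in mutant controls and 48062 to 61133 in N2. Early zygotic genes of the embryo were dim, with 4 of 11 bright enough to test, and 0 were called at an adjusted or unadjusted p under 0.05 in either comparison. Their summed signal was 277.2 to 386.5 with skn-1 RNAi, 341.8 to 419.7 in mutant controls and 340.4 to 392.5 in N2. The 13 RNA-binding genes of oocyte and embryo summed to 48516 to 53534 with skn-1 RNAi, 36523 to 43056 in mutant controls and 48104 to 54627 in N2, so the mutant controls lay below both other groups. For the 10 eggshell genes the sums were 57453 to 64266 with skn-1 RNAi, 52084 to 56222 in mutant controls and 62729 to 66490 in N2.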

How the data were processed

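Biotinylated cRNA from 250 ng of total RNA per sample was hybridised to Affymetrix arrays, per the labels' protocols. The submitters' processing notes name MAS5, without a version, and the deposited values are signal intensities on a linear scale. Tested on the values, the mean of each array after trimming 2% at each end was 500.1, so the authors had scaled the arrays to one level. Further upstream steps are not given in the sources used here.

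Of 22625 probe sets, 77 controls were left out. Signals were taken to log2 after adding 19 (the 20th percentile of all signals, rounded), which makes fold changes of dim genes smaller. The lowest 30% by mean log2 value were dropped and 15783 tested with limma 3.58.1 in R 4.3.3 (lmFit, eBayes with intensity trend, two-sided, 3 groups in one fit, no replicate block). Benjamini-Hochberg adjustment ran over the 15783, and calls are at an adjusted p under 0.05. The fit was tested on simulated data.

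Gene names came from the platform annotation: 20766 probe sets had 1 gene symbol, 887 several and 895 none. All 35 genes matched RefSeq by gene number, with symbols unchanged. The genes and lists, and the rule that every one of them is named, with per-array values for the most changed in each role, were chosen with earlier results of these data known. Replicates are biological per the labels, and the number of arrays limits precision. Residual correlations between same-numbered arrays ran from -0.16 to 0.18, and between others from -0.17 to 0.17. Such overlapping ranges cannot exclude a pairing by replicate number. The pairs of arrays numbered 1 were at 0.11, 0.0435 and 0.18. No array was a copy of another. No batch is given. Alternatives were other pseudocounts, filters, scalings, probe set choices, no intensity trend, only the 2 compared groups, a replicate block and omission of each array.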

Additional observations from a re-analysis of the deposited data

Results flagged for a closer look

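Within the 4 wdr-23 control RNAi arrays, single arrays stood apart for 2 of the 35 genes by Dixon's ratio, the gap to the nearest array over the range of the group, which was above its 95% critical value. For mex-5 replicate 4 was the lowest, with a signal of 2413 beside 3127 to 3258 on the other 3 arrays (ratio 0.864). For oma-1 replicate 1 was the highest, with 2608 beside 1821 to 1907 (ratio 0.871). Chance alone flags about 1 in 20 groups. Without replicate 4 the mex-5 change for mutant over N2 was -0.32, and without replicate 1 the oma-1 change was -0.49.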

How the results depend on the processing

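Falls of the 35 genes for mutant over N2 numbered 19, against 31 with arrays centred on their medians and 22 with probe sets averaged per gene. They numbered 15 with no filter, 15 without the intensity trend and 16 with quantile normalization or with only the 2 compared groups fitted. Rises with skn-1 RNAi numbered 17, against 31 with median centring and 19 with probe sets averaged per gene. They numbered 11 without the intensity trend, 12 with no filter and 13 with only the 2 compared groups fitted. Quantile normalization added 1 fall, perm-4. Against N2, mutants on skn-1 RNAi had 1 rise in place of 0 with the lowest 50% left out or probe sets averaged per gene (csr-1), or with quantile normalization (glh-1). Leaving out single arrays gave 8 to 20 falls in the mutant, 9 to 23 rises with skn-1 RNAi and 0 to 1 rise for mutants on skn-1 RNAi over N2. Over all probe sets 4344, 3558 and 1001 were called in the 3 comparisons, 1235, 1264 and 309 when only the 4334 as bright as the 35 genes were tested (an alternative chosen after seeing the data, with fewer probe sets tested), and 2848 to 4125, 2216 to 3533 and 521 to 1043 with single arrays left out. The cause of the other differences was not tested.

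A fit with a replicate block gave 14 falls, 14 rises and, for mutants on skn-1 RNAi over N2, 0 calls among the 35, with 3815, 2918 and 1016 probe sets called. In that fit wdr-23 control RNAi replicate 4 is alone in its block and drops out of the contrasts, and without that array and with no block there were 13 falls and 11 rises. All changes of sign were in values that had not passed. For mutant over N2, perm-4 was at -0.19 with median centring, -0.12 with probe sets averaged and -0.029 to 0.077 with single arrays left out, glh-1 at -0.12 with median centring, and glh-2 at -0.19 to 0.035 with single arrays left out. With skn-1 RNAi, cpg-3 was at 0.14 with median centring, 0.042 with the replicate block and -0.067 to 0.058 with single arrays left out. For mutants on skn-1 RNAi over N2, cbd-1 was at -0.23 on its probe set without a suffix, pos-1 at -0.031 with median centring, and gld-1 at -0.016 and cgh-1 at 0.035 with probe sets averaged. With single arrays left out of that comparison, pos-1 ran from -0.070 to 0.086, cgh-1 from -0.14 to 0.025 and deps-1 from -0.092 to 0.15. Signs in that comparison were followed gene by gene only for the genes whose values are printed for it, and others also changed sign. Of all 35 genes, 19 were below 0 there, against 14 with quantile normalization, 22 with median centring and 15 to 23 with single arrays left out. Pseudocounts of 1 and 64 gave the same 19 and 17 counts.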
